A study of Mus musculus with 6 samples.

Results

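The 10 genes described here encode enzymes of glycolysis and of lactate formation: Hk1, Hk2, Gpi1, Aldoa, Tpi1, Gapdh, Pgk1, Eno1, Pkm and Ldha. They were taken by name from the 21911 protein-coding genes of the annotation, and their peaks were those of each deposited list that lay within 2.5 kb of any transcription start site (TSS) or in the gene body. H3K27ac, the acetylation of histone H3 at lysine 27 that marks active promoters and enhancers, was measured by ChIP-seq in retinas of wild-type (WT) mice that were 3-month-old at the start of the pressure protocol. The 3 4xIOP samples came from eyes in which the intraocular pressure (IOP) was raised to 30 mmHg for 1 h, 4 times at intervals of 2 weeks, and the 3 control samples came from contralateral eyes without IOP elevation. Tissue was taken on day 2 after the fourth elevation, and the control eyes belong to animals that had undergone the procedure in the other eye. The treatment text shared by the labels also describes injections of dasatinib or of vehicle, and the labels of these 6 samples name no drug. Retina was used whole, hence fewer cells of a type and less of the mark per cell cannot be told apart.

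In glycolysis, glucose is phosphorylated by hexokinase, split into triose phosphates and oxidized to pyruvate, with a net gain of ATP. Photoreceptors are known for aerobic glycolysis: they turn much of their glucose into lactate even when oxygen is present. Gapdh is also widely used as a reference gene, since its transcript is abundant in most cells.

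In 4 of the 6 samples (control replicates 1 and 2, 4xIOP replicates 1 and 2) the name carried inside the deposited peak list is that of the other group. Samples were kept as labelled, and every direction given here holds for the labels. Control replicate 3 also stood apart by its peaks: its list held 36509 against 16195 to 21893 in the other lists, and the median promoter marked in all 6 lists had 71 fragments at its summit against 29 to 37. Levels are therefore given as the fragments at the summit of the strongest promoter peak divided by this median of the same list, and called times the median. The rod photoreceptor promoters of Nrl, Sag, Gnat1, Pde6b and Rcvrn were marked in every list. Of 11 markers of other retinal cells 1 was marked in all lists (Glul) and 6 in none. Rlbp1, a marker of Müller glia as Glul is, was marked in 0 lists. Of 13 markers of microglia, pigment epithelium, endothelium, cornea and lens, skeletal muscle and liver 10 were marked in none. The skeletal muscle marker Ckm was marked in 3 control lists and 1 4xIOP list, and Acta1 in 1 list of each group. The liver marker Apoa1 was marked in 1 control list.

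The sequence just before the reference start, the 5′-most RefSeq start near the peak summits, is shown for 4 of the enzymes: Gapdh, as the best known of them, Pgk1, whose promoter peak was missing from all 4xIOP lists, Ldha, whose level varied least, and Hk2, whose difference between groups had the opposite sign of the others. The sequences are from RefSeq on GRCm38 (the build of the files, mm10) and run 5′ to 3′ on the strand of the gene. Capitals mark ACGTG or its reverse complement CACGT, the core of the element bound by hypoxia-inducible factor, and the GC box GGGCGG or CCGCCC. Where ACGTG and CACGT overlap they read CACGTG.

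Gapdh (chr6:125165774-125166023, minus strand): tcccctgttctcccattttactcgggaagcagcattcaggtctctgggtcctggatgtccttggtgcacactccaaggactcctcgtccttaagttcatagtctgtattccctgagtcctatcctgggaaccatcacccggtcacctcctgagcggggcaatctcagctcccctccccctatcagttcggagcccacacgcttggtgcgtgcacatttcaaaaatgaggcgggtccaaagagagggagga

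Hk2 (chr6:82774455-82774704, minus strand): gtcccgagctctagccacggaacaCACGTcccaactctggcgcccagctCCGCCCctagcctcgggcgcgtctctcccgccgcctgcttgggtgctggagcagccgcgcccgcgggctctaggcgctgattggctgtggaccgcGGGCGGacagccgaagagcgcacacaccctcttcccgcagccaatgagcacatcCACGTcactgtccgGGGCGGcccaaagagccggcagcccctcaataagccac

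Pgk1 (chrX:106186850-106187099, plus strand): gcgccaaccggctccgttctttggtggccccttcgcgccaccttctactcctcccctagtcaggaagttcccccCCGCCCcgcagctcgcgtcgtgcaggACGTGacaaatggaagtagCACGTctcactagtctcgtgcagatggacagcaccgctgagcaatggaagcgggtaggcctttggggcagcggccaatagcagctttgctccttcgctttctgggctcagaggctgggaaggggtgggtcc

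Ldha (chr7:46845554-46845803, plus strand): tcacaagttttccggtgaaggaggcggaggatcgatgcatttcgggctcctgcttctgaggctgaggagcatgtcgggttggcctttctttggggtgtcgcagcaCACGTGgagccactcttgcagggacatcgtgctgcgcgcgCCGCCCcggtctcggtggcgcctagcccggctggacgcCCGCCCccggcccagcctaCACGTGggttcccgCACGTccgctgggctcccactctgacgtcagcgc

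Ldha had the most matches to the core in these 250 bases, 5, while Pgk1 and Hk2 had 2 each and Gapdh had 0. In Ldha each CACGTG counts as 2 overlapping matches, so that its marked stretches are fewer than 5. Those of Pgk1 and Hk2 do not overlap. Counted over windows from 250 bases before to 50 after the start, and on both strands, the core was found in 5 of 10 enzymes (Gapdh, Hk1, Hk2, Pgk1 and Ldha), compared with 19.6% of all 32851 RefSeq promoters. The GC box was found in 6 of 10, compared with 35.7% of all promoters. G and C made up 52.7% (Aldoa) to 67.3% (Hk2 and Ldha) of the enzyme windows, compared with a median of 52.7% over all promoters. The shares with a match were not adjusted for this. TATAAA was in 0 of 10 (13.6% of all promoters), as was TAATCC, the core bound by the photoreceptor factor Crx (7.06%). A match shows only that these letters are in the window.

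First, the presence of the mark was compared. All 10 promoters were marked in each control list, and 8, 8 and 9 were marked in 4xIOP replicates 1 to 3 (10.0 ± 0 in control, 8.33 ± 0.58 in 4xIOP, SD, n = 3). In all 6 lists, 8 of 10 were marked, against 39.5% of all protein-coding genes. The share of all genes with a marked promoter was 48.6%, 46.2% and 56.9% in control and 47.4%, 45.6% and 44.6% in 4xIOP. Hence the enzymes were more often marked than protein-coding genes at large in every list, and the genes missing from 4xIOP lists were Pgk1 and Hk1. The lists differ in length, however, and when each was shortened to its 16195 strongest peaks the enzymes marked were 7, 9 and 10 in control and 8, 8 and 9 in 4xIOP, so that the groups overlapped.

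Pgk1, the phosphoglycerate kinase gene on chromosome X and the first ATP-forming step, was marked at its promoter in each control list, with 33, 33 and 61 fragments at the summit, and no 4xIOP list held a promoter peak for it. It is 1 of 79 protein-coding genes, 0.361% of all, marked in every control and in no 4xIOP list. The opposite pattern was found in 0 genes (0.0%). The control levels of Pgk1 were 0.943, 0.892 and 0.859 times the median, the lowest of the 10 enzymes. Peaks in the 4xIOP lists with a local background like that of Pgk1 were called from 26, 26 and 29 fragments upwards, which is 0.765, 0.813 and 1.00 times the median. Thus the control levels of Pgk1 lay close to the smallest level that a 4xIOP list could report, and a missing peak does not show that the mark was absent. With equal numbers of peaks per list Pgk1 kept its peak in 2 control lists, replicates 2 and 3, and with −log10 q of at least 5 in 1, replicate 3. With equal numbers of peaks, over all genes the counts became 29 marked in every control and no 4xIOP list and 10 marked in every 4xIOP and no control list. Of the 948 genes of chromosome X, 3 were marked in every control and no 4xIOP list (0.316%). The median level of the 152 of them marked in all lists was 0.648 to 0.730 times the median in control and 0.647 to 0.688 in 4xIOP.

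Hk1, the hexokinase of most tissues including neurons, was marked at its promoters in all control lists and in 4xIOP replicate 3. The 3 control summits held 40, 47 and 80 fragments, and that of 4xIOP replicate 3 held 37. Relative to the median these were 1.14, 1.27 and 1.13 in control and 1.28 in 4xIOP replicate 3, which lay above the control lists. In the other 4xIOP lists peaks at a background like that of Hk1 were called from 28 fragments upwards, 0.824 and 0.875 times the median. Beyond its promoters Hk1 held a chain of intragenic peaks. Regions with summits 12.95, 29.5, 30.3 and 40.4 kb downstream of the reference start were marked in all 6 lists, and with the exception of the nearest, whose summit fell in an exon, these summits were intronic. The length covered by peaks over the whole locus was 4.03 ± 1.10 kb in control and 1.85 ± 0.20 kb in 4xIOP (SD, n = 3), and the groups did not overlap (exact permutation p = 0.1, the smallest possible). Of all 13481 loci with a peak, 10.4% had a covered length lower in every 4xIOP than in every control list.

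Hk2, the hexokinase that is inducible in many tissues, was marked in all lists, with 43, 42 and 81 fragments in control and 48, 46 and 32 in 4xIOP. Relative to the list median these were 1.23, 1.14 and 1.14 in control and 1.41, 1.44 and 1.10 in 4xIOP. The groups overlapped, and the log2 difference was 0.16 ± 0.16 (SE). Hk2 was the only one of the 8 enzymes tested with a positive log2 difference.

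Gpi1, the isomerase of glucose 6-phosphate, ranged from 1.14 to 1.68 times the median in control and from 1.10 to 1.53 in 4xIOP. Its strongest summit lay upstream of the start in 3 lists and downstream in the other 3. Aldoa, the aldolase that splits the sugar into trioses, had the highest mean level of all, 2.38 times the median, which placed it at percentile 98.9 of the promoters marked in all lists. Levels of Aldoa were 2.54, 2.51 and 2.28 in control and 2.29, 2.66 and 1.97 in 4xIOP times the median. In both genes the groups overlapped. A TSS of Fam57b also lay under the strongest Aldoa region, and the signal of the genes cannot be told apart there.

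Tpi1, the triose phosphate isomerase, had the smallest p of the enzymes tested between groups. Its summit had 62, 84 and 125 fragments in control lists and 43, 46 and 36 in 4xIOP lists. Levels were 1.77, 2.27 and 1.76 times the median in control and 1.26, 1.44 and 1.24 in 4xIOP (1.93 ± 0.29 and 1.32 ± 0.11, SD, n = 3). Every 4xIOP list was below every control list. Among all 8657 promoters tested 4.39% had this order and 4.16% had the opposite one. The log2 difference was -0.55 ± 0.16 (SE), a ratio of 0.683, with an unadjusted limma p of 0.00294 that became 0.998 after Benjamini-Hochberg adjustment over all promoters. Tpi1 thus did not pass the threshold of 0.05.

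Gapdh, which oxidizes glyceraldehyde 3-phosphate, carried 2 acetylated regions that flank its reference start. Their median summits were at -0.866 kb (upstream) and 0.595 kb (downstream) from it. Both were marked in all 6 lists, and in 0 lists did a peak cover the reference start. Gapdh has 2 annotated starts, however, and the one at position 125166467 lies within the upstream region (125165821 to 125167376). The strongest summit of Gapdh lay downstream of the reference start in 5 lists, and in 4xIOP replicate 1 both regions had 45 fragments. The strongest summits had 62, 101 and 141 fragments in control and 45, 62 and 43 in 4xIOP. Levels were 1.77, 2.73 and 1.99 times the median in control and 1.32, 1.94 and 1.48 in 4xIOP (2.16 ± 0.50 and 1.58 ± 0.32, SD, n = 3). The groups overlapped, since 4xIOP replicate 2 was above control replicate 1. The log2 difference was -0.45 ± 0.19 (SE), with an unadjusted limma p of 0.0289 and an adjusted p of 0.998. Without control replicate 2 it was -0.25 with an unadjusted limma p of 0.237, and without 4xIOP replicate 1 it was -0.30 with a p of 0.201. Without 4xIOP replicate 3 it was -0.37 with an unadjusted limma p of 0.0842. The length covered by peaks at Gapdh was 2.27 ± 0.38 kb in control and 1.64 ± 0.38 kb in 4xIOP (SD, n = 3, exact permutation p = 0.1), again without overlap of the groups. Over the 6 lists Gapdh was the most variable of the enzymes, with an SD of 0.36 on the log2 scale, higher than in 94.6% of the promoters marked in all lists. Processed copies of Gapdh are scattered over the mouse genome, and how reads that map to several places were treated is not given in the sources used here. The genes outside the pathway whose levels followed Gapdh most closely over the 6 lists were Aff4, Platr17 and Ccdc58, with root mean square differences of 0.205, 0.218 and 0.223 on the log2 scale.

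**Figure D1:**
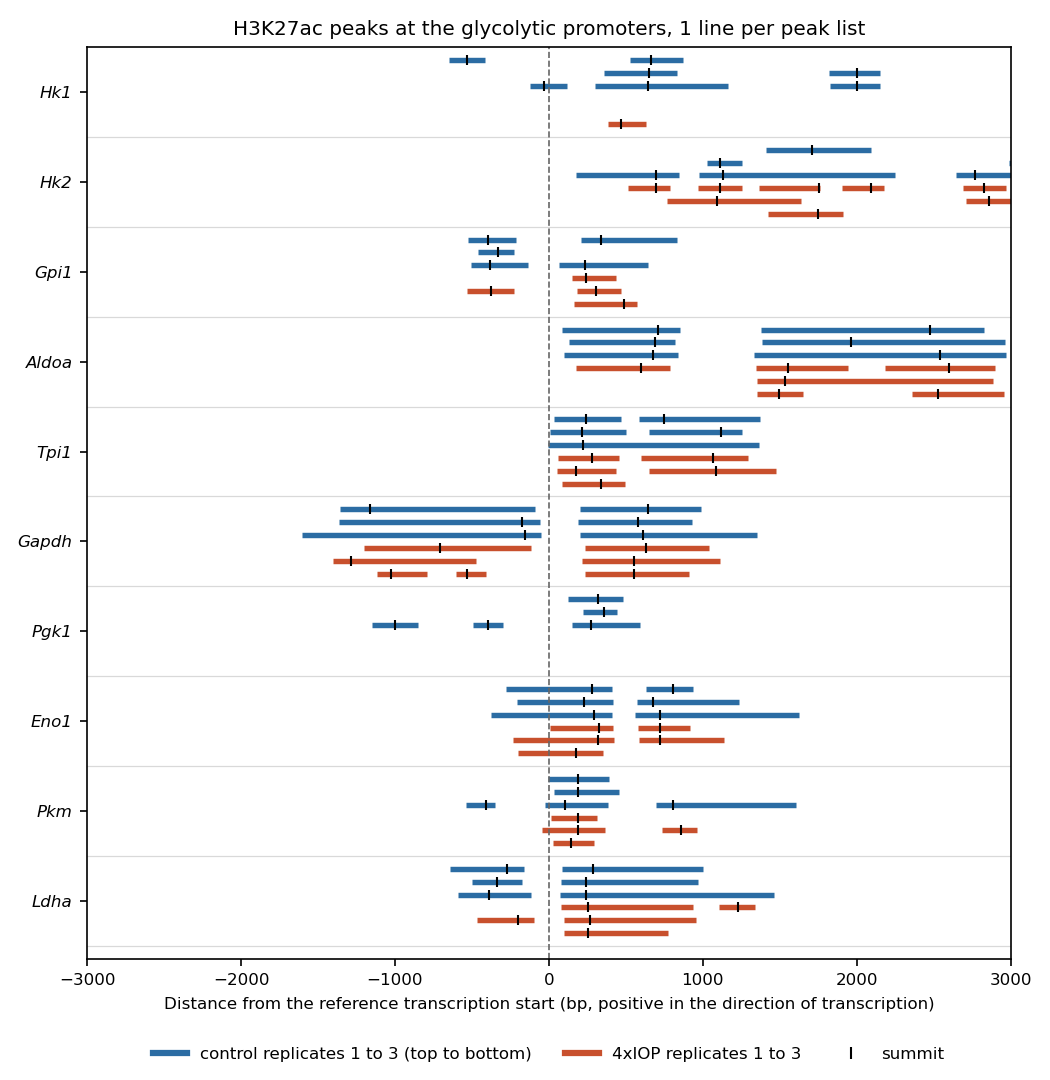
Peaks of the 10 enzymes by distance from the reference transcription start (x axis, bp), with a line for each peak in each of the 6 lists (control blue, 4xIOP orange, replicates 1 to 3 from top to bottom) and a tick at each summit. Peaks of Gapdh flank the reference start without covering it, and those of Eno1 cover theirs in 5 lists. Pgk1 has peaks in the 3 control lists alone.

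Eno1, the enolase, had 2.14, 2.51 and 1.90 times the median in control and 2.59, 2.31 and 1.66 in 4xIOP. Pkm, the pyruvate kinase gene, had 2.03, 2.32 and 2.01 in control and 1.73, 2.75 and 1.93 in 4xIOP. For both genes the lists of the groups overlapped, and the log2 differences were -0.02 ± 0.20 and -0.01 ± 0.19 (SE). Eno1 and Pkm also differed from the other enzymes in position: a peak covered the reference start in 5 lists for Eno1 and in 3 for Pkm, in 1 each for Tpi1 and Hk1, and in none for the remaining 6. In Pkm a further intronic region 4.30 kb downstream of the start was marked in 5 lists. Ldha, which reduces pyruvate to lactate, was the least variable (SD 0.14 on the log2 scale over the 6 lists). It had 2.34, 2.27 and 2.39 times the median in control and 2.15, 2.5 and 1.90 in 4xIOP, a log2 difference of -0.11 ± 0.18 (SE).

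**Figure D2:**
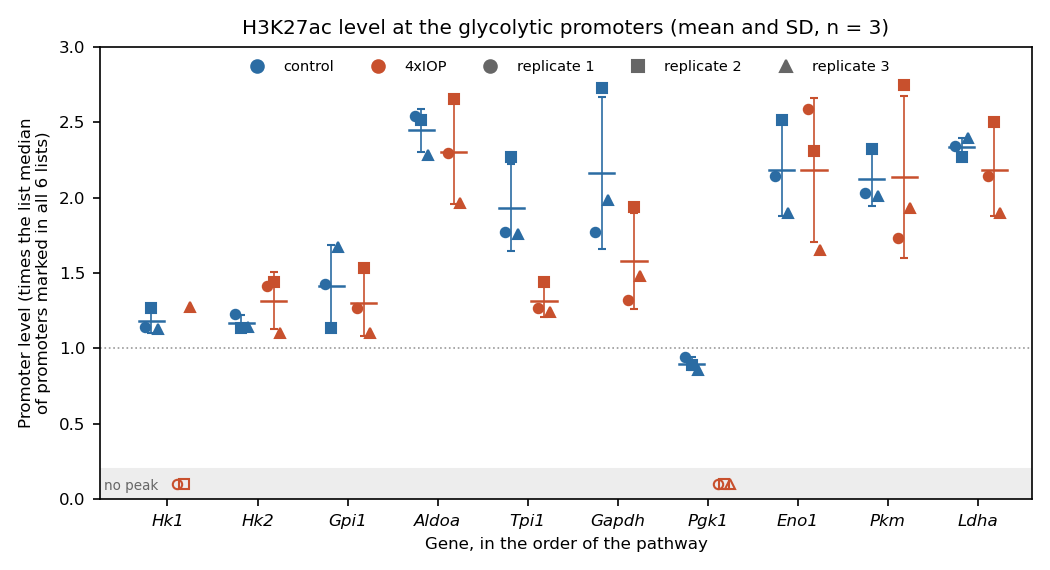
Promoter level of each enzyme (y axis, summit fragments divided by the list median of promoters marked in all 6 lists) by gene in pathway order, with a point for each list, bars for mean and SD (n = 3) and open symbols for lists without a promoter peak. Tpi1 is the gene whose groups do not overlap, while Hk1 lacks a peak in 2 and Pgk1 in 3 of the 4xIOP lists.

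By mean level over the 6 lists the order was Aldoa (2.38 times the median), Ldha (2.26), Eno1 (2.19), Pkm (2.13), Gapdh (1.87), Tpi1 (1.62), Gpi1 (1.36) and Hk2 (1.24). The 5 highest were at percentiles 94.7 to 98.9 of all promoters marked in every list, and Hk2 was at 73.2. On the log2 scale neighbours in this order differed by less than the SD over lists of each gene of the pair, except that Tpi1 and Gpi1 differed by slightly more than the SD of Gpi1 (0.24) and by less than that of Tpi1 (0.34). In contrast, Aldoa, Ldha, Eno1 and Pkm were above Gpi1 and Hk2 in each of the 6 lists. Of 55 gene and list pairs with a promoter peak, the strongest summit was downstream of the reference start in 52. The tie at Gapdh in 4xIOP replicate 1 was counted as downstream, and the reference start was covered in 10 of the pairs. The reference start is the 5′-most RefSeq start near the summits, which by itself favours downstream positions in genes with several starts. The same count over all promoters is not given here. Among 40 regions merged over the lists, 12 were marked in all 6, and 1 (Pgk1) in every control and no 4xIOP list.

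The rank of the enzymes depended on the quantity read from the lists. By fragments at the summit, the median enzyme was at percentile 87.1 to 97.7 among the marked promoters of a list. By the deposited fold over the local background, it was at percentile 6.27 to 15.6. The local background around the enzymes was high: at Gapdh it was 4.38 to 12.7 times the genome mean of the list and at Aldoa 5.55 to 15.7 times, compared with a median of 1.75 to 3.43 times for promoters marked in all lists. The deposited fold divides by this background, and the backgrounds above the genome mean were whole numbers of fragments in a window of 10000 bp (within 0.1, with a fragment length equal to the shortest peak of the list) for 100% of the peaks of up to 40 fragments in each list, compared with 49.5% to 50.3% for a window of 5000 bp.

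**Figure D3:**
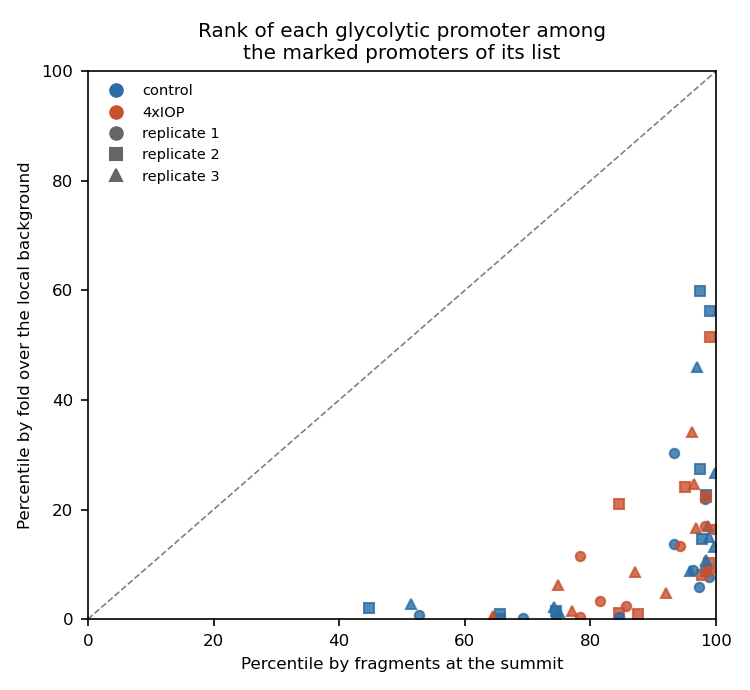
Percentile of each enzyme among the marked promoters of its list by summit fragments (x axis) and by fold over the local background (y axis), with a point for each gene and list (control blue, 4xIOP orange). All points lie below the diagonal, with fold percentiles from 0.0939 to 59.9.

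Next, the difference between groups was tested for the 8657 promoters marked in all 6 lists, of which 8 belong to the enzymes. With limma and Benjamini-Hochberg adjustment 0 promoters were called higher (0.0%) and 0 lower (0.0%) in 4xIOP, and 268 (3.1%) had an unadjusted p under 0.05. Of the enzymes 2 of 8 were among them, Tpi1 and Gapdh. The log2 difference was negative in 7 of the 8 enzymes, with a median of -0.10 compared with -0.01 over all promoters tested. Gpi1 and Aldoa had -0.12 ± 0.18 and -0.09 ± 0.19 (SE). On the log2 scale of the deposited fold the sign of the median changed, to 0.10, and 6 of 8 enzymes were higher in 4xIOP. Tpi1 and Gapdh stayed negative on that scale, at -0.35 and -0.14. Without 4xIOP replicate 3 the median of the enzymes was 0.04. When the genome mean of each list was used for scaling, the median difference was -0.27 over all promoters tested and -0.37 over the enzymes.

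**Figure D4:**
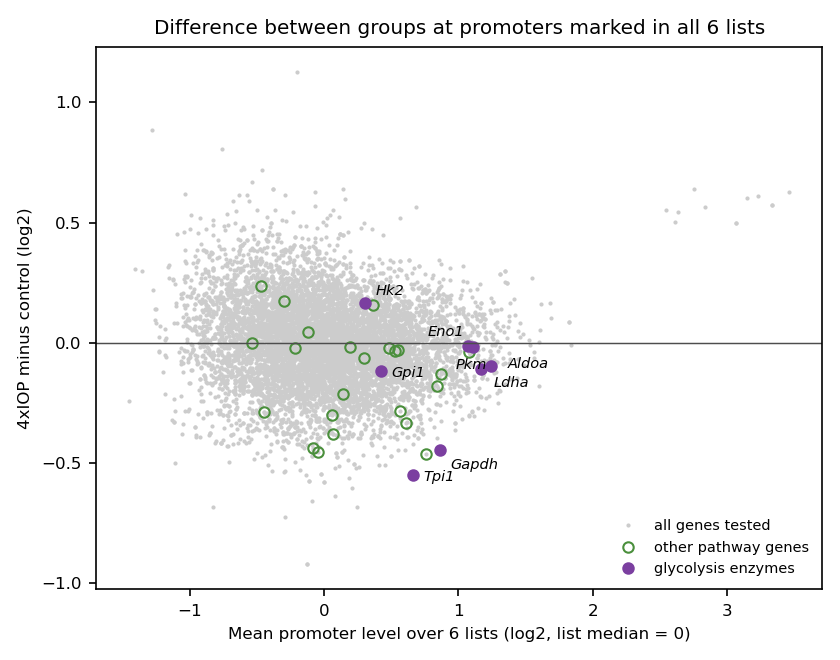
Difference between groups (y axis, 4xIOP minus control, log2) against the mean level over 6 lists (x axis, log2, list median 0) for the 8657 promoters marked in all lists (grey), with 8 glycolysis enzymes (purple) and 23 other pathway genes (green rings). Tpi1 at -0.55 and Gapdh at -0.45 lie lowest among the enzymes, and Eno1 and Pkm lie near 0.

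The extent of the mark at the loci was compared as well. Peaks covered 14.3, 13.4 and 22.6 kb of the 10 loci in control and 12, 12.5 and 8.55 kb in 4xIOP (16.8 ± 5.07 and 11.03 ± 2.16 kb, SD, n = 3). As a share of all length covered by peaks this was 0.132%, 0.151% and 0.112% in control and 0.118%, 0.121% and 0.128% in 4xIOP, and the groups overlapped. The mean covered length was lower in 4xIOP for 9 of the 10 genes, as it was for 91.7% of all loci with a peak. In 4 genes (Gapdh, Hk1, Pgk1 and Pkm) every 4xIOP list was below every control list, against the 10.4% of all loci given above. The longest and the shortest list are control replicate 3 and 4xIOP replicate 3. With equal numbers of peaks per list the summed difference of -5.76 kb became -3.69 kb, 3 genes (Gapdh, Hk1 and Pkm) against 8.96% of all loci had this order, and the mean was lower for 8 genes against 78.4% of all loci. Without control replicate 3 the summed difference was -2.84 kb.

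Finally, the members were set beside 44 other genes of the pathway. Of these, 23 were marked in all 6 lists, 9 in some and 12 in none. Marked shares were 61.4%, 59.1% and 68.2% in control and 52.3%, 54.5% and 59.1% in 4xIOP. The genes grouped with the 10 enzymes by enzyme name differed: Aldoc, Eno2 and Ldhb, known from brain and retina, were marked in all lists. Eno3 was marked in 1 list. Ldhd, grouped by name as a lactate dehydrogenase and not as a gene of the Ldha step, was marked in 2. No list marked Hk3, Hkdc1, Gapdhs, Pgk2, Pklr or Ldhc, some of which are known from testis. Of the steps not covered by the 10 enzymes, phosphofructokinase (Pfkl, Pfkm and Pfkp) and phosphoglycerate mutase (Pgam1 and Bpgm) were marked in all 6 lists, and the mutase gene Pgam2 was marked in 0 lists.

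**Figure D5:**
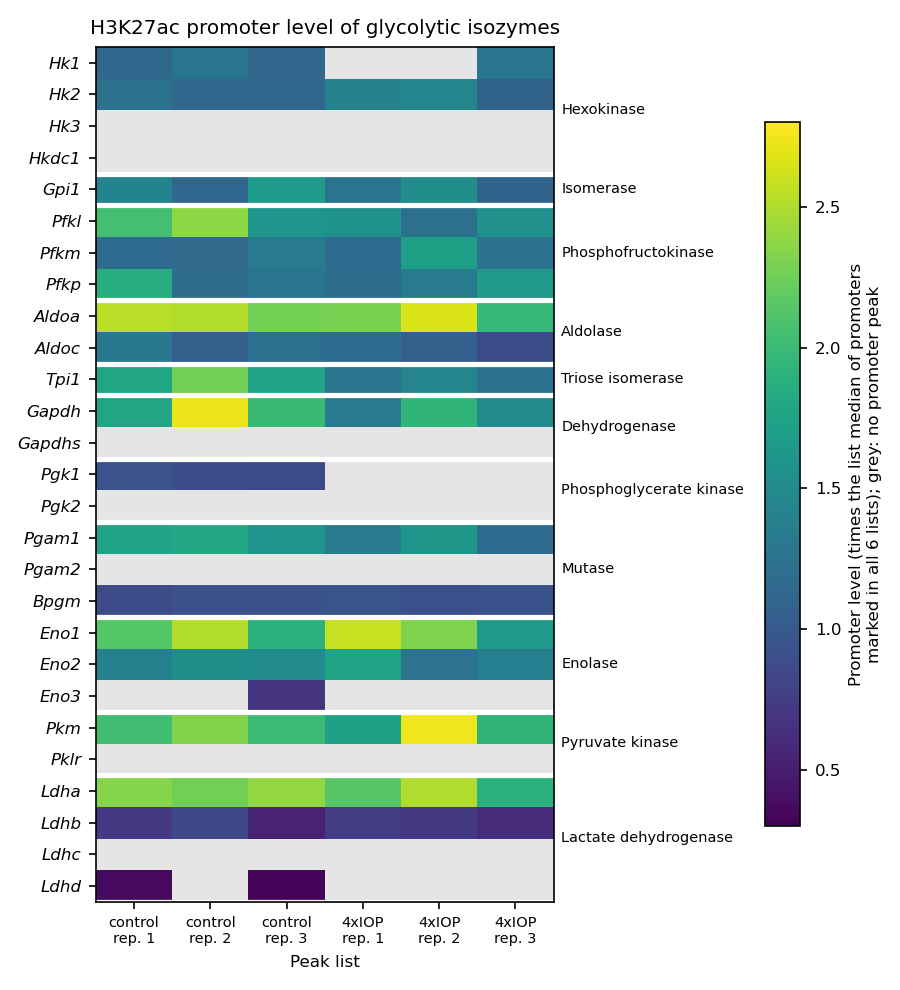
Promoter level of genes grouped by the enzyme name of each step, in rows, by list, in columns. Colour gives times the list median of promoters marked in all 6 lists, and grey marks a list that holds no promoter peak. Aldoa, Eno1 and Ldha are above their marked isozymes Aldoc, Eno2 and Ldhb in the mean over the lists, and 7 of the rows are grey in every list.

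Among the 23 other pathway genes tested, 19 had a negative log2 difference (51.2% of all promoters tested had one) and 0 were called by limma after adjustment. The most negative was that of Pfkl, at -0.46 ± 0.18 (SE), with an unadjusted limma p of 0.0168 and an adjusted p of 0.998. The levels of Pfkl and Arnt were lower in every 4xIOP than in every control list, while the groups overlapped in the other 21; over all promoters tested 4.39% had this order. Arnt, named because this count is small, encodes the dimer partner of the hypoxia factors and had a difference of -0.38 ± 0.17 (SE). The most positive was that of Tigar, which encodes a fructose bisphosphatase that slows glycolysis, at 0.24 ± 0.20 (SE). A further gene was singled out after its values were seen: Slc2a1, the main glucose transporter of the retina and its vessels, which was 1 of the 44 marked in every control list and in no 4xIOP list, as Pgk1 was. The control lists held 52, 81 and 125 fragments at its summit, or 1.49, 2.19 and 1.76 times the median. Peaks in the 4xIOP lists with a local background like that of Slc2a1 were called from 36, 37 and 41 fragments upwards, or 1.06, 1.16 and 1.41 times the median. All control levels of Slc2a1 were thus above the level at which the 4xIOP lists called peaks, although the background of the 4xIOP lists at this gene is not known. With equal numbers of peaks per list, and with −log10 q of at least 5, Slc2a1 was still marked in 3 control and 0 4xIOP lists. That a level called at some promoters would be called at this one was not tested.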

How the data were processed

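H3K27ac ChIP-seq was measured in 6 retina samples, grouped by their labels (3 control, 3 4xIOP). The authors deposited 1 narrowPeak list per sample, called for that sample alone. Per peak, the deposited values are the fold over a local background (a ratio), the −log10 p-value and the −log10 q-value of the peak caller, and the summit offset in bp. The submitters' processing notes name MACS2, HOMER, STAR 2.7.8a, bedtools 2.29.2 and mm10, and the caller's settings are not given in the sources used here. No deposited values of the authors' own comparisons were used.

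Read counts were not used here. The local background and the fragments at each summit were recovered from fold and p under a Poisson model, which returned the deposited p within 0.001 for 100% of peaks in each list. The highest fragment number of each list was 2.0 times its shortest peak length in bp, so that pile-ups have a ceiling far above the values described. The genome mean background was 87.4 to 173 fragments per 10000 bp, which limits the precision of low levels. A list without a peak says that its threshold was not passed, not that the mark was absent.

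Genes and TSS were from GENCODE vM21 basic on GRCm38 (41520 TSS positions, 2.5 kb on either side, overlap of at least 1 bp). All 10 genes were found, each with a RefSeq start, and 1 start per gene was the reference. Log2 summit fragments, centred on the list median, were tested with limma 3.58.1 (R 4.3.3, two-sided, moderated with a trend, Benjamini-Hochberg adjustment over 8657 promoters, 0.05). Covered length was compared by exact permutation of the lists (two-sided), for which 0.1 is the smallest possible p. Scripts ran in Python 3.11.15 and were tested on simulated data.

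All 10 enzymes are named, and of 44 other pathway genes the isozymes of their steps, those called and the largest difference in each direction, together with the 3 genes closest to Gapdh. Some genes of these lists are not reported here. The members and lists were chosen with earlier results of these data known. The labels do not say which eyes share an animal, and p-values measure only the spread between these samples. Alternatives covered the lists used, peak thresholds, scaling, promoter width, base composition and a replicate block.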

Additional observations from a re-analysis of the deposited data

How the results depend on the processing

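With limma, 0 promoters were called in either direction under all 18 alternatives, the fits without 1 list included, with smallest adjusted p-values from 0.196 to 1.00. Promoters with an unadjusted p under 0.05 numbered 268, but 635 without 4xIOP replicate 3 and 2 under genome mean scaling. The median log2 difference of the enzymes ranged from -0.20 without 4xIOP replicate 2 to 0.04 without 4xIOP replicate 3, and was -0.37 when scaled to the genome mean background, where the median of all promoters tested was -0.27. On the deposited fold it was positive, 0.10 on the log2 scale and 0.08 as normal scores of ranks, and the cause was not tested. The difference in enzymes with a promoter peak, -1.67 per list, ranged from -2.0 to -1.5 without single lists, and was -1.0 with −log10 q of at least 5, -0.33 with lists cut to the length of the shortest, and -1.0 between the lists whose carried name is that of their label (control replicate 3 and 4xIOP replicate 3). Between these lists the median level difference was -0.28 and the covered length differed by -14.1 kb, against -5.76 kb over all 6 lists, -7.43 to -2.84 kb without single lists and -3.69 kb with equal list lengths. Genes marked in all lists of only 1 group were 79 in control and 0 in 4xIOP, 99 and 0 with −log10 q of at least 5, and 29 and 10 with equal list lengths. For the other pathway genes the difference in marked share was -9.47 to -4.92 percentage points without single lists and -3.03 with equal numbers of peaks. Of 148 alternative values for single enzymes 127 kept the sign and 21 did not. The 148 include 8 under genome mean scaling, which moves all promoters alike and is the reason that Hk2 turned there, to -0.10. Tpi1 (-0.82 to -0.35 on log2 scales, -0.93 in normal scores of the ranked fold) and Gapdh (-0.71 to -0.14 and -0.50) kept their sign under the alternatives run, none of which regrouped the lists by carried name. Hk2 was -0.048 between the lists with matching names. On the log2 fold, Gpi1 was 0.10, Aldoa 0.18, Eno1 0.10, Pkm 0.35 (unadjusted limma p of 0.0350) and Ldha 0.084. With normal scores of the ranked fold, Gpi1 was 0.052, Aldoa 0.25, Pkm 0.70 and Ldha 0.12. Without single lists, the ranges were -0.25 to 0.034 for Gpi1, -0.19 to 0.053 for Aldoa, -0.13 to 0.21 for Eno1, -0.20 to 0.14 for Pkm and -0.20 to 0.026 for Ldha, and all these were positive without 4xIOP replicate 3. Pkm was 0.00080 with a promoter window of 1 kb.

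Samples with the same replicate number did not deviate together (correlations of -0.058, 0.016 and -0.022 over 8657 promoters). These correlations cannot show which eyes share an animal, and whether the numbers pair the samples stays unknown. With the replicate block 0 promoters were called, the median difference of the enzymes was -0.10, and 258 promoters had an unadjusted p under 0.05 against 268 without it. The same holds with the GC correction, with 262 and 283. The calling level limits the lower end: a promoter just under it in a list is missing from that list. At a local background like that of Pgk1 the fewest fragments called were 0.38 (control replicate 3) to 1.00 (4xIOP replicate 3) times the median.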

Other observations

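Tpi1 and Gapdh, the enzymes with the most negative differences, in the groups as labelled, are neighbours on chromosome 6, with reference starts 351.6 kb apart. This was noticed after their values were seen. Between them lie 10 promoters that were marked in all 6 lists, of which 8 had a negative and 2 a positive log2 difference (4xIOP minus control), from -0.34 to 0.43 with a median of -0.12. None of the 10 was as negative as Tpi1 or Gapdh. Hk2, the third enzyme on this chromosome, had a difference of 0.16.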
